A study of Mus musculus with 8 samples.

Results

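In regulatory T cells, a CD4 lineage that holds other immune cells in check, the transcripts examined were those of 9 genes of sterol control: Srebf1, Srebf2, Scap, Insig1, Insig2, Stard4, Abca1, Abcg1 and Lpin1. The genes were chosen by name for their part in the control of the sterol regulatory element-binding proteins (SREBPs) and in sterol uptake, transport and efflux. In the probe annotation used here, 7 of the 9 had a probe set that names 1 gene, 14 probe sets in all, and all 7 were among the 11413 genes tested of 17097 with a probe set. Srebf1 and Abca1 had none and were not analysed here. Each array held the RNA of 1 sample of CD4+CD25+ cells sorted from spleen and peripheral lymph nodes and used fresh, without treatment. There were 4 samples from wild-type mice (WT) and 4 from CD4(cre)Raptor(fl/fl) mice (called RaptorKO here), all on the C57Bl/6J background; the sources used here give no age for the mice. In the latter a Cre recombinase driven by the Cd4 promoter acts on a floxed Rptor gene, so recombination is not limited to regulatory T cells but occurs in T cells generally. Rptor encodes Raptor, the scaffold protein of the kinase complex mTORC1.

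SREBPs are transcription factors made as precursors in the membrane of the endoplasmic reticulum. Scap binds the precursor and escorts it to the Golgi, where proteases release the active factor; when membrane sterols are abundant, Insig proteins hold Scap and its cargo back. Srebf2 chiefly serves cholesterol synthesis and uptake, Insig1 is itself a target of the factors and so closes a feedback loop, and mTORC1 is known to favour SREBP activity, in part by keeping the phosphatase lipin 1 out of the nucleus. Excess sterol leaves the cell through transporters such as Abcg1, under control of the oxysterol receptors called LXR.

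The 3 promoters below belong to the regulators on which the comparison turns, Srebf2 and the Insig1 and Insig2 pair. They are the 250 bases before a RefSeq start site (assembly GRCm38.p6), written 5′ to 3′ on the gene's strand. Capitals mark the letters TCACNCCA (the core of a sterol regulatory element), CACGTG (an E-box) and CCAAT (the NF-Y box), searched on both strands, so that ATTGG marks an NF-Y box on the other strand.
Insig1, chr5:28071162-28071411, plus strand: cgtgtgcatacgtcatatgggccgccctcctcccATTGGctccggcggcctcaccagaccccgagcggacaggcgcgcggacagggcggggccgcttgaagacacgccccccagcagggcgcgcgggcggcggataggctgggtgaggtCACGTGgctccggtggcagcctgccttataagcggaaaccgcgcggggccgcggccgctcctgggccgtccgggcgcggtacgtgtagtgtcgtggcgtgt
Srebf2, chr15:82147019-82147268, plus strand: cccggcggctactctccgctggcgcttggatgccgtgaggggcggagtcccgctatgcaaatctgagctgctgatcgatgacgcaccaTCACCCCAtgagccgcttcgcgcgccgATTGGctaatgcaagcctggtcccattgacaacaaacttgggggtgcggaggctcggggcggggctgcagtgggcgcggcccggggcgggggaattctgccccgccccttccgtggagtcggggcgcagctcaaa
Insig2, chr1:121327679-121327928, minus strand: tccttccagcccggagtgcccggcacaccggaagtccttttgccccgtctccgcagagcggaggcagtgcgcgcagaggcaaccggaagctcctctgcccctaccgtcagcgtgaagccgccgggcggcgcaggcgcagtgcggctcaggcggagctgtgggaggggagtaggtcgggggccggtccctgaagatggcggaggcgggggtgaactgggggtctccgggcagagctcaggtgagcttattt
The Srebf2 window held the sterol element core at -162 to -155 from the start site, with an NF-Y box at -135 to -131. In the Insig1 window an E-box lay at -101 to -96 and an NF-Y box at -216 to -212, and the letters of the sterol element core were not found. The Insig2 window printed held none of the 3 motifs; of the other 2 Insig2 start sites in the table, 1 held 3 NF-Y boxes. Over all 32851 promoter windows of this length, 3.67% held the sterol element core, 6.02% an E-box and 33.8% an NF-Y box. The NF-Y box lay in at least 1 window of 14 of 15 genes of sterol synthesis, against 37.5% of all 27025 genes. The sterol element core lay in only 2 of these 15 genes, against 4.2% of all genes, and an E-box in 3, against 6.86%. Of the 9 regulators and transporters, 7 had promoter sequences here, and 4 of these held the NF-Y box: Srebf1, Srebf2, Insig1 and Insig2. The sterol element core lay in 1 of these 7, Srebf2, and an E-box in 3, Insig1, Scap and Abca1. These 7 are not the 7 with a probe set, as they include Srebf1 and Abca1 and lack Stard4 and Abcg1. A match of letters is a description and does not show binding.

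On the log2 scale of the arrays, none of the 7 genes changed between genotypes at an adjusted p under 0.05 (limma, Benjamini-Hochberg adjustment over 11413 genes), where 1.96% of all genes tested did. Insig1 had the largest difference, -0.57, followed by Stard4 at -0.36 and Srebf2 at -0.25. Scap (-0.12), Lpin1 (-0.09), Insig2 (-0.02) and Abcg1 (0.01) differed by less than their groups' spread. Thus 6 of 7 had a lower mean in RaptorKO, with a median of -0.12; over all genes tested 52.4% were lower and the median was -0.01. Groups did not overlap for 2 of the 7, Insig1 and Srebf2, against 8.82% of all genes (5.09% with RaptorKO lower, as here), and limma's unadjusted p was under 0.05 for 3 of the 7, against 13.0% (7.49% with RaptorKO lower, as here). Because these are 7 genes of 1 pathway, such counts describe them and are no test.

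**Figure D1:**
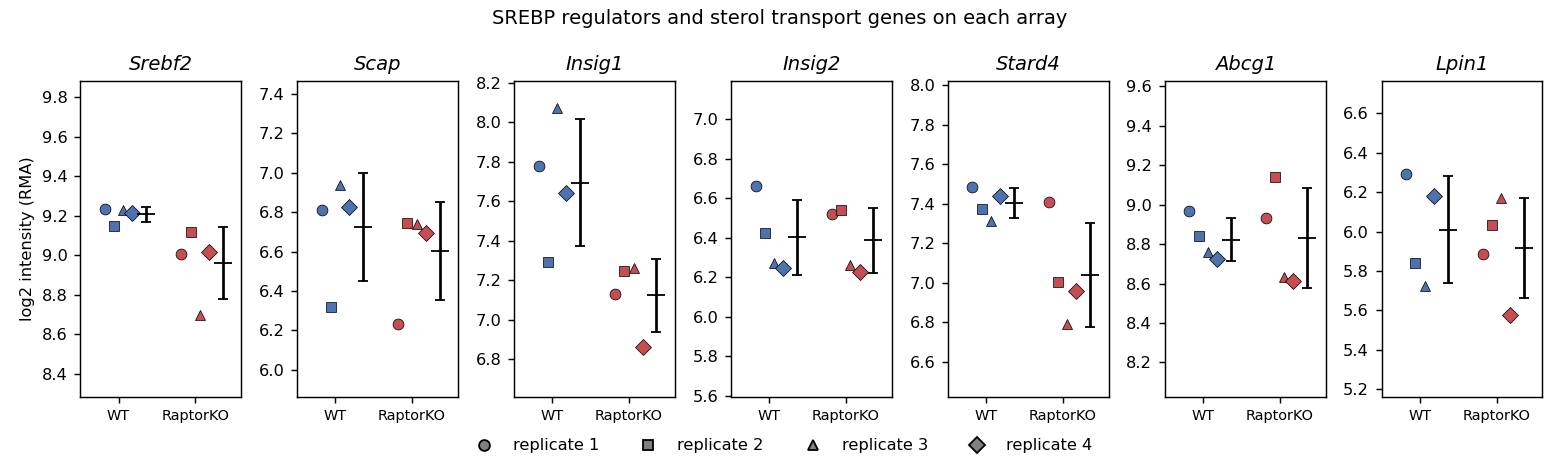
Log2 intensity (vertical axis, RMA) of the brightest probe set of 7 genes on each array, for WT (blue) and RaptorKO (red), with marker shapes for replicates 1 to 4 and a bar for the mean ± SD (n = 4); every panel spans the same height. For Insig1 the RaptorKO points end at 7.26, just under the lowest WT point at 7.29, whereas the Abcg1 and Insig2 groups lie at the same height.

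The array medians lay between 5.21 and 5.29. RMA evens out the signal between arrays, so these medians do not show how alike the samples were. The targeted gene, Rptor, had a brighter probe set at 6.75 to 7.03 in WT and 6.47 to 6.95 in RaptorKO (-0.23, SE 0.12, adjusted p = 0.491, limma) and a dimmer one at 5.89 to 6.14 and 5.37 to 5.74 (-0.42, adjusted p = 0.0923 with every probe set tested), which was lower in all 4 RaptorKO samples; where these probes lie relative to the deleted part is not known here. Markers that define regulatory T cells were bright in every sample, with a mean of the 5 listed between 10.45 and 10.64. Of these 5, 4 had a higher mean in RaptorKO and 1 a lower one (median 0.09, 0 called). Replicates 1 and 2 of both genotypes read 10.88 to 11.18 for Xist and replicates 3 and 4 read 5.04 to 5.62, so these sets differ in a sex-linked transcript, and values within each set are given for the 7 genes and for the called genes of the pathway lists. Of the listed macrophage and monocyte markers with a probe set, all 9 tested had a higher mean in RaptorKO (median 0.39, 0 called), and their mean level over 13 markers ranged from 4.93 to 5.77 in WT and from 5.36 to 6.07 in RaptorKO. After the values were seen, these 9 were also compared by set of replicates. Every sample of replicates 3 and 4 exceeded replicates 1 and 2 for C1qa, C1qb, C1qc, Spic, Vcam1 and Hmox1. Over all genes tested, 4.20% had sets that did not overlap, in either direction. Lyz2, Csf1r and Cd68 overlapped between the sets. For C1qc, replicates 1 and 2 read 5.78 to 6.61 and replicates 3 and 4 read 7.16 to 7.83. Both CD8 T cell markers had a lower mean (median -0.90, 0 called), ranging together from 6.32 to 8.07 in WT and from 6.08 to 7.03 in RaptorKO. All 3 CD4 T cell markers (median -0.22) and all 4 markers of naive or conventional CD4 T cells (median -0.11) had lower means, with 0 called. Among 5 tested B cell markers, 4 had a higher mean in RaptorKO and 1 a lower one (median 0.14, 0 called). Of 3 erythroid markers 2 had a higher mean (median 0.14, 0 called), Hba-a1, a haemoglobin chain chosen here after its values were seen, by 1.10 (limma adjusted p = 0.159). Their part in the differences below was not tested. In bulk RNA of this kind, fewer cells of a type and less RNA per cell cannot be told apart.

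Srebf2 encodes the precursor of SREBP-2, the member of the family most devoted to sterol synthesis. Its brighter probe set read 9.23, 9.15, 9.23 and 9.22 in WT 1 to WT 4 and 9.005, 9.12, 8.70 and 9.02 in RaptorKO 1 to RaptorKO 4. The WT samples were nearly equal, every RaptorKO sample was below all of them, and RaptorKO 3 stood lowest. The means were 9.21 ± 0.04 in WT and 8.96 ± 0.18 in RaptorKO (SD, n = 4 each), a difference of -0.25 (SE 0.11, 95% confidence interval -0.48 to -0.01) that did not pass the test (limma adjusted p = 0.356). Without RaptorKO 3 the difference was -0.16. A second Srebf2 probe set did not separate the groups, with 8.30 to 8.89 in WT and 8.34 to 8.70 in RaptorKO (-0.06, SE 0.14, limma adjusted p = 0.921 with every probe set tested). The 2 probe sets of this gene therefore gave unlike pictures, and the mean of both differed by -0.16 (limma adjusted p = 0.582).

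Scap, the escort that senses sterols and carries SREBP precursors out of the endoplasmic reticulum, had 1 probe set. It read 6.81, 6.32, 6.94 and 6.83 in WT and 6.23, 6.75, 6.74 and 6.69 in RaptorKO. The groups overlapped, with 1 low sample in each, WT 2 and RaptorKO 1. The means were 6.72 ± 0.27 and 6.60 ± 0.25 (SD, n = 4 each), and the difference of -0.12 (SE 0.16, 95% confidence interval -0.46 to 0.22, limma adjusted p = 0.84) became -0.26 without WT 2 and 0.0022 without RaptorKO 1.

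Insig1, the inducible retention protein for Scap, had the largest difference of the 7. Its single probe set read 7.78, 7.29, 8.07 and 7.64 in WT and 7.13, 7.25, 7.26 and 6.86 in RaptorKO. All 4 RaptorKO samples lay below all 4 WT samples, but by a narrow margin, because WT 2 was close to the upper RaptorKO values. The WT mean was 7.69 ± 0.32 and the RaptorKO mean 7.12 ± 0.18 (SD, n = 4 each), a difference of -0.57 (SE 0.16, 95% confidence interval -0.92 to -0.23), or 1.49-fold, with limma adjusted p = 0.107. Of all genes tested, 398 had a smaller p. Insig1 passed in 2 of 22 other settings, with array weights (-0.66, limma adjusted p = 0.0456) and without WT 2 (-0.71, limma adjusted p = 0.0429). For scale, when 100 genes of 11413 simulated ones were changed by 0.5, 34 passed the test, as did 99 of 100 that were changed by 1.

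Insig2, the second Insig protein, whose gene is not induced by SREBPs in the same way, had 3 probe sets. The brightest read 6.66, 6.42, 6.27 and 6.25 in WT and 6.52, 6.54, 6.26 and 6.23 in RaptorKO. Here the genotypes coincided, and in both of them replicates 1 and 2 were above replicates 3 and 4. The means were 6.40 ± 0.19 and 6.39 ± 0.16 (SD, n = 4 each), a difference of -0.02 (SE 0.12, 95% confidence interval -0.29 to 0.26, limma adjusted p = 0.979). The dimmer sets differed by -0.10 and 0.06, both with overlapping groups and neither called.

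Whether the 2 Insig genes changed unequally was asked from the difference between their log2 values within each array, whose shift between genotypes compares the changes and not the levels. This difference averaged 1.29 ± 0.40 in WT (range 0.87 to 1.80) and 0.74 ± 0.18 in RaptorKO (range 0.61 to 0.999; SD, n = 4 each). The shift of -0.56 gave p = 0.0571 in a two-sided exact permutation test over the 70 relabellings of the arrays, whose smallest possible p is 0.0286. The groups overlapped only across the sets of replicates, where RaptorKO 3 lay above WT 2. Within replicates 1 and 2, WT ran from 0.87 to 1.11 and RaptorKO from 0.61 to 0.71, and within replicates 3 and 4 WT ran from 1.395 to 1.80 and RaptorKO from 0.63 to 0.999. A two-sided exact permutation test that exchanged genotypes only within these sets, added after the values were seen, gave p = 0.0556, the smallest that its 36 relabellings allow. The within-set test therefore could not reach 0.05 in this design, and the test over all arrays did not. The pairs Srebf1 with Srebf2 and Abca1 with Abcg1 were not analysed here.

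**Figure D2:**
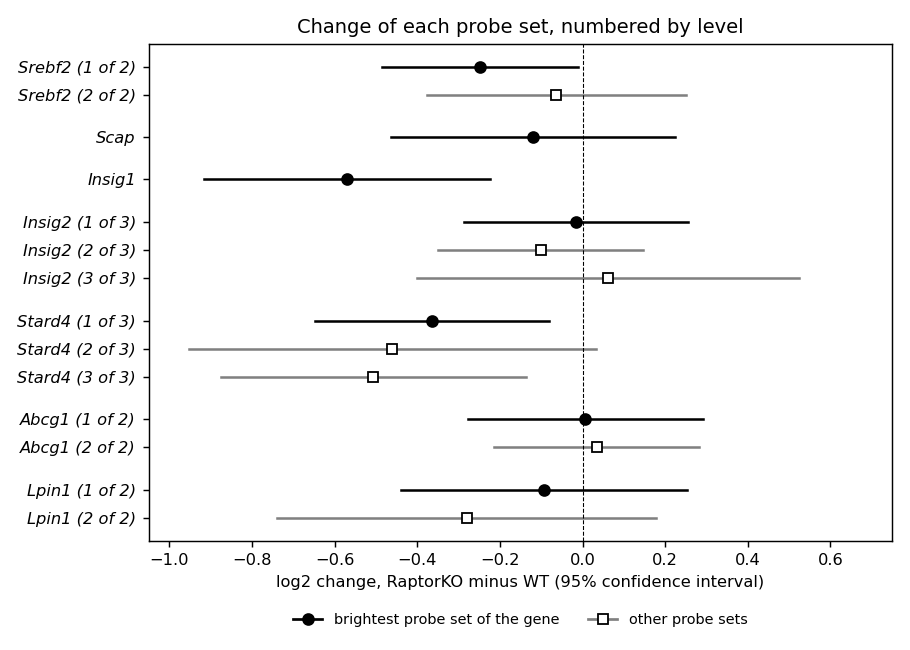
Log2 change, RaptorKO minus WT, of all 14 probe sets with 95% confidence intervals from limma; filled circles are the brightest probe set of each gene and open squares the others, numbered by level. Both Srebf2 intervals reach close to or past 0, the 3 Stard4 changes lie between -0.36 and -0.51, and Insig1, at -0.57, is the farthest from 0.

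Stard4 encodes a soluble carrier that moves cholesterol between membranes and is itself regulated by sterols. Its brightest probe set read 7.48, 7.37, 7.32 and 7.44 in WT and 7.41, 7.005, 6.79 and 6.96 in RaptorKO. RaptorKO 1 lay within the WT range and the other 3 RaptorKO samples were below it. The means were 7.40 ± 0.07 and 7.04 ± 0.26 (SD, n = 4 each), a difference of -0.36 (SE 0.13, 95% confidence interval -0.65 to -0.08) with limma adjusted p = 0.225. Without RaptorKO 1 it was -0.49 (limma adjusted p = 0.0621), and without RaptorKO 3 it was -0.28. The direction was the same in all 3 Stard4 probe sets. In the second set WT ran from 5.51 to 5.84 and RaptorKO from 4.59 to 5.88, with RaptorKO 1 the highest sample of all 8 (-0.46, SE 0.22, limma adjusted p = 0.429 with every probe set tested). In the third, WT ran from 5.19 to 5.86 and RaptorKO from 4.67 to 5.25 (-0.51, SE 0.17, limma adjusted p = 0.2 with every probe set tested), so that here RaptorKO 1, at 4.93, was among the low samples. The probe sets of this gene thus shared a direction but not the order of the RaptorKO samples.

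Abcg1, which exports cholesterol from macrophages and T cells and is induced through LXR, did not separate the genotypes. Its brighter probe set read 8.97, 8.84, 8.76 and 8.72 in WT and 8.93, 9.14, 8.63 and 8.62 in RaptorKO. As with Insig2, replicates 1 and 2 of each genotype were above replicates 3 and 4. The means were 8.82 ± 0.11 and 8.83 ± 0.25 (SD, n = 4 each), and the difference of 0.01 (SE 0.13, 95% confidence interval -0.28 to 0.29, limma adjusted p = 0.991) was made up of 0.13 in replicates 1 and 2 and -0.12 in replicates 3 and 4. Between these sets of replicates Abcg1 did not pass either (limma adjusted p = 0.497), nor did any other of the 7 genes, against 0.158% of all genes; the sets did not overlap for 2 of the 7, Abcg1 and Insig2, against 4.20% of all genes. A dimmer probe set agreed in size, at 0.03 (95% confidence interval -0.21 to 0.28).

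Lpin1 encodes lipin 1, a phosphatidate phosphatase that mTORC1 phosphorylates and that lowers SREBP activity when it enters the nucleus. Its brighter probe set read 6.29, 5.84, 5.72 and 6.18 in WT and 5.89, 6.03, 6.17 and 5.58 in RaptorKO, with values fully interleaved between the genotypes. The means were 6.01 ± 0.27 and 5.92 ± 0.26 (SD, n = 4 each), a difference of -0.09 (SE 0.16, 95% confidence interval -0.44 to 0.25, limma adjusted p = 0.887). The dimmer set gave -0.28 (SE 0.21, limma adjusted p = 0.663 with every probe set tested), with RaptorKO 1 lowest at 4.71. These arrays measure the transcript, so the phosphorylation and location through which mTORC1 acts on lipin 1 were not seen.

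Within replicates 1 and 2 the differences were -0.35 for Insig1, -0.22 for Stard4 and -0.13 for Srebf2, and within replicates 3 and 4 they were -0.80, -0.50 and -0.36. For Scap, Insig2 and Lpin1 the values were -0.07, -0.01 and -0.11 in the first set and -0.17, -0.02 and -0.08 in the second. All of the 7 genes but Abcg1 (0.13 and -0.12) kept a negative sign in both sets, and all of these but Lpin1 were numerically larger in the second. All genes tested also moved downward between the sets. Their median difference was 0.02 in the first set and -0.04 in the second, with 5300 and 6473 of 11413 negative. The difference between the sets did not pass for any of the 7 genes (limma interaction, lowest adjusted p = 0.559, for Insig1), and over all 11413 genes 0 (0.00%) were called, with 1304 (11.4%) at an unadjusted p under 0.05.

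**Figure D3:**
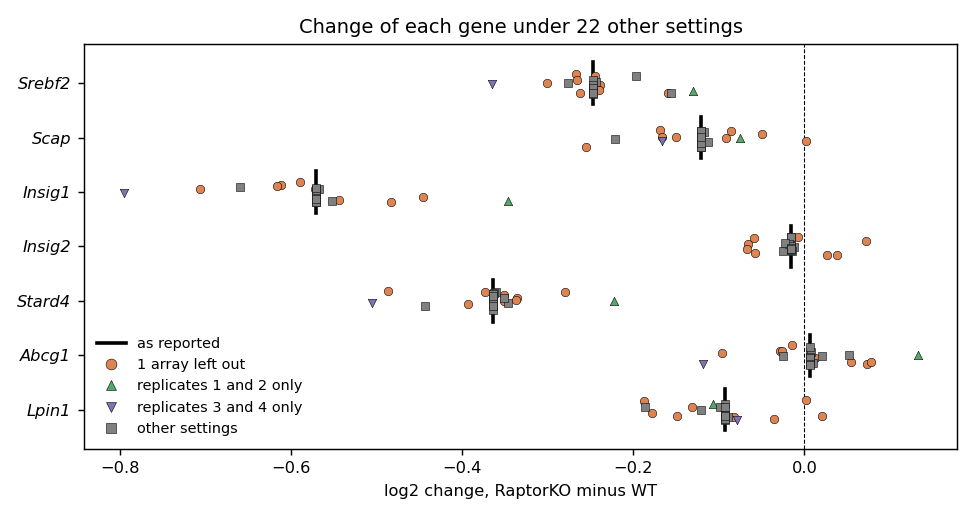
Log2 change, RaptorKO minus WT, of each gene as reported (black bar) and under 22 other settings: 8 with 1 array left out (circles), replicates 1 and 2 only (upward triangles), replicates 3 and 4 only (downward triangles) and 12 others (squares). Insig1, Stard4 and Srebf2 stay below 0 in all 22, from -0.80 to -0.35 for Insig1, while Scap, Insig2, Abcg1 and Lpin1 have values on both sides of 0. Settings that alter only the test repeat the reported value.

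The rest of the SREBP pathway was described with 6 gene lists. In sterol synthesis, the pathway that SREBP-2 drives, all 14 tested genes had negative differences (median -0.39); 2 were called lower, against 1.14% of all genes, and 0 were called higher, against 0.824%. The called ones were Idi1, the isopentenyl diphosphate isomerase (-0.87, SE 0.13, limma adjusted p = 0.00613), and Cyp51, the lanosterol demethylase (-0.56, SE 0.11, limma adjusted p = 0.0284). Insig1, with -0.57, thus differed by as much as Cyp51 but with a larger error. By set of replicates, the list's median was -0.28 (1 and 2, with 12 of 14 negative) and -0.39 (3 and 4, with 14 of 14 negative). Over all genes tested the medians in these sets were 0.02 and -0.04, with 5300 and 6473 of 11413 negative. The call of Cyp51 ended when WT 1 was left out (-0.46, limma adjusted p = 0.0735), likewise WT 2, WT 4, RaptorKO 1, RaptorKO 3 or RaptorKO 4, and with the replicate block (limma adjusted p = 0.0518). Within replicates 1 and 2 and within replicates 3 and 4, Cyp51 differed by -0.65 and -0.46, not called in either (limma adjusted p = 0.266 and 0.138), and Idi1 by -0.74 and -0.997, called in the second set alone (limma adjusted p = 0.241 and 0.037). Msmo1, a sterol methyl oxidase named after its values were seen, had probe sets that disagreed, with -0.0017 for the one used here and -0.72 for the other (limma adjusted p = 0.0423 with every probe set tested).

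Fatty acid synthesis, the branch served mainly by SREBP-1, had 8 of 13 tested genes negative, a median of -0.27 and 0 called. The smallest p-values were those of Acsl3, an acyl-CoA synthetase (-0.48, limma adjusted p = 0.135), and Acss2, which makes acetyl-CoA from acetate (-0.67, limma adjusted p = 0.135). Genes that cut, release or degrade SREBPs and their partners were evenly split, with 5 positive and 6 negative of 11, a median of -0.02 and 0 called. In that list Erlin1, a membrane protein that takes part in Insig-dependent degradation, differed by 0.36 (limma adjusted p = 0.345), and Mbtps1, the Golgi protease that makes the first cut in SREBPs, by 0.14 (limma adjusted p = 0.652).

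In sterol uptake, transport and storage, 7 of 10 tested genes were negative, with a median of -0.09 that ran from -0.16 (without RaptorKO 2) to -0.05 (within replicates 1 and 2) in other settings. Gramd1a, which carries cholesterol from the plasma membrane to the endoplasmic reticulum, was the called member. It was lower in RaptorKO, a call that 1.14% of all genes received. It read 9.23, 9.49, 9.47 and 9.41 in WT and 8.87, 8.99, 8.86 and 9.002 in RaptorKO. The groups were clearly apart, and Gramd1a fell by 0.47 (SE 0.10, limma adjusted p = 0.0324) from 9.40 ± 0.12 to 8.93 ± 0.08 (SD, n = 4 each). It lost its call without WT 2, WT 3 (-0.45, limma adjusted p = 0.118), WT 4, RaptorKO 1, RaptorKO 3 or RaptorKO 4, and with the replicate block (limma adjusted p = 0.0877) or quantile normalization (-0.42, limma adjusted p = 0.0548). Nor was it called within replicates 1 and 2 (-0.43, limma adjusted p = 0.392) or within replicates 3 and 4 (-0.50, limma adjusted p = 0.12), so that 12 of 22 other settings called it. Npc2, which hands cholesterol out of the lysosome and was named after its values were seen, read 10.18 to 10.33 in WT and 10.49 to 10.73 in RaptorKO. Those groups did not overlap either, but in the opposite direction (0.37, SE 0.10, limma adjusted p = 0.0819). Of all genes tested, 8.82% had groups that did not overlap.

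The LXR and efflux list had 7 of 10 tested genes negative, a median of -0.05 and 0 called; its smallest p-values belonged to Lpcat3, a phospholipid acyltransferase (-0.39, limma adjusted p = 0.356), and Rxrb, a retinoid receptor that pairs with LXR (-0.20, limma adjusted p = 0.515). Among the lipins and the phosphatase complex that acts on them, 2 of 4 were negative, with Lpin2 at -0.22 (limma adjusted p = 0.463), Ctdnep1 at 0.17 (limma adjusted p = 0.589) and 0 called.

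**Figure D4:**
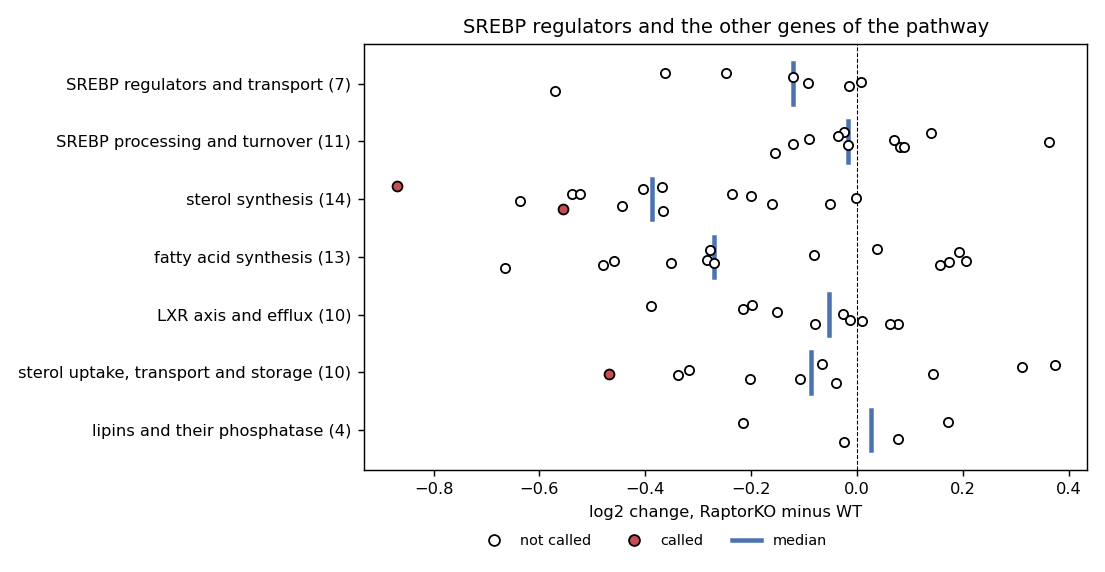
Log2 change, RaptorKO minus WT, of the 7 regulators and transport genes and of the tested genes of 6 pathway lists (1 point a gene, the number tested in parentheses); filled points were called and blue bars are medians. The sterol synthesis points all lie below 0 around a median of -0.39, while the lists of SREBP processing and of LXR and efflux are centred near 0.

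The 5 genes whose profile over the 8 arrays was most like that of Insig1, by Pearson correlation, were Pdlim1 (r = 0.98), Lta4h (0.97), Arhgef3 (0.96), Pnp (0.96) and Xrn2 (0.96). They were picked from all tested genes over only 8 arrays that share the genotype contrast, and their own differences ranged from -0.57 for Arhgef3 (limma adjusted p = 0.0759) to -0.20 for Xrn2 (limma adjusted p = 0.397).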

How the data were processed

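The authors deposited log2 probe set intensities. Per the submitters' processing notes these come from RMA (robust multi-array averaging), with no version named in the sources used here. RMA evens out the signal between arrays, and no further normalization was applied. Probe sets were named from the platform annotation, updated through Entrez identifiers; 28898 of 45141 named 1 gene, 551 several and 15692 none. A gene's brightest probe set over the 8 arrays represented it, and entered the test where 4 or more arrays put it above their 40th percentile. The genotypes were compared in limma 3.58.1 (R 4.3.3, lmFit and eBayes, no covariates), calling a gene at a Benjamini-Hochberg adjusted p under 0.05 over 11413 genes. Whether each sample is a separate mouse is not stated in the labels, and p-values measure only the spread between these samples. The number of arrays limits the precision.

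Named were all 7 genes with a probe set, of each pathway list the called members or else the 2 with the smallest p, and the 5 genes most like the one with the smallest p. The genes, lists and most settings were chosen with earlier results of these data known. The comparison between sets of replicates and the permutation within them were added after seeing the values. So was the naming of Npc2, Msmo1, Hba-a1, Elovl6, Fdft1, Sqle and single macrophage markers. Other settings were a replicate block, the mean or all of a gene's probe sets, a filter at the 60th percentile or none, quantile or median or 75th percentile scaling, an intensity trend, robust variances, array weights, a term for the sets of replicates, each set alone, and each array left out. The fit was tested on simulated data. Promoter sequences came from RefSeq; figures were drawn with matplotlib 3.10.9.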

Additional observations from a re-analysis of the deposited data

Results flagged for a closer look

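In the 30 groups of 4 values examined (14 probe sets in each genotype, and the Insig1 minus Insig2 difference in each), 2 samples stood far from the other 3 of their group; chance gives about 1 in 20 such groups. For Scap, RaptorKO 1 read 6.23 against 6.69 to 6.75 in the other RaptorKO samples, a gap of 0.894 of the group's range. For the dimmer Abcg1 probe set, WT 2 read 5.41 against 5.74 to 5.80 in the other WT samples, a gap of 0.837 of the range.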

How the results depend on the processing

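Insig1, Stard4 and Srebf2 kept a negative difference in all 22 other settings, from -0.80 to -0.35, -0.50 to -0.22 and -0.36 to -0.13. Several settings, such as the block, the filters and the robust variances, alter the test and leave the difference itself as it was. Leaving out samples cannot change the sign where groups do not overlap, as for Insig1 and Srebf2. The constant sign is therefore largely built in and is no separate support. The count of called genes among the 7 was 0 in 20 settings and 1, Insig1, with array weights and without WT 2 (range 0 to 1 with single arrays left out). Differences near 0 changed sign without passing the test. Abcg1 was -0.025 with array weights and -0.12 within replicates 3 and 4, and ran from -0.096 to 0.078 with single arrays left out (below 0 without RaptorKO 1, RaptorKO 2, WT 3 or WT 4). Likewise Insig2 ran from -0.067 to 0.072 (above 0 without RaptorKO 3, RaptorKO 4 or WT 1), Lpin1 from -0.19 to 0.021 (above 0 without RaptorKO 4 or WT 1) and Scap from -0.26 to 0.0022 (above 0 without RaptorKO 1). The cause was not tested. Tests of the pairs Srebf1 with Srebf2 and Abca1 with Abcg1 were not run, as only the latter gene of each has a named probe set.

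Over all genes, 224 were called as reported, 370 with an intensity trend, 9 within replicates 1 and 2, 85 within replicates 3 and 4, and 98 to 251 with single arrays left out; fewer samples enter these last fits. With the replicate block 175 were called, Insig1 stood at -0.57 (limma adjusted p = 0.106) and none of the 7 was called. Replicates 1 and 2 of both genotypes share a set, as do 3 and 4, but the labels do not say whether the numbers pair single samples. Deviations of same-numbered samples correlated from -0.15 to 0.16, with 2 of 4 pairs over 0.1. Correlations of this kind cannot show whether samples were paired. The block ended the calls of Cyp51 and Gramd1a, as given above, and not that of Idi1. The Insig1 minus Insig2 shift ranged from -0.70 to -0.39 with single arrays left out, where p cannot go below 0.0571 (exact permutation test), was -0.55 with the mean of probe sets, -0.53 with quantile normalization, and -0.33 and -0.78 within the sets of replicates, where p cannot go below 0.333 (exact permutation test). Permuted within sets of replicates it was -0.56 (exact permutation p = 0.0556).

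Of the lists, the sterol synthesis count was 1 with the replicate block, 0 within replicates 1 and 2, 2 within replicates 3 and 4 (Idi1 and Sqle), 3 with array weights (Fdft1 added) and 3 with every probe set tested (Msmo1 added). In sterol uptake, transport and storage, 2 were called with an intensity trend or the mean of probe sets (Gramd1a and Npc2), and with quantile normalization Npc2 in place of Gramd1a. Elovl6 was called when every probe set was tested (-0.72). The fatty acid median was -0.08 with no filter. Medians of SREBP processing were 0.11 within replicates 1 and 2 and 0.07 without RaptorKO 3. Those of LXR and efflux were -0.24 within replicates 3 and 4 and -0.17 without WT 2, and those of sterol uptake, transport and storage -0.05 and -0.15 within the sets, -0.16 without RaptorKO 2 and -0.13 without WT 4.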

Other observations

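On their brightest probe sets, Insig2 and Abcg1 separated the samples by replicate number rather than by genotype. Insig2 read 6.42 to 6.66 in replicates 1 and 2 and 6.23 to 6.27 in replicates 3 and 4, a difference of -0.28 (SE 0.10), and Abcg1 read 8.84 to 9.14 and 8.62 to 8.76, a difference of -0.29 (SE 0.10). Neither passed over all genes (limma with genotype in the model, adjusted p = 0.461 and 0.497), where 0.158% of genes were called. In each case all 4 samples of one set were above all 4 of the other, as for 4.20% of all genes. The dimmer probe sets of both genes overlapped between replicates 1 and 2 and replicates 3 and 4. For Insig2 they read 6.02 to 6.41 against 6.11 to 6.33, and 5.89 to 6.59 against 5.66 to 6.001. The dimmer Abcg1 probe set read 5.41 to 5.83 against 5.64 to 5.74. The sets of replicates also differ in Xist and in several macrophage markers, and the comparison was made after the values were seen. The other 5 genes overlapped between the sets.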
